A study of Mus musculus with 35 samples.

Results

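The comparison described here is between the testes of Akt1 homozygous and Akt1 heterozygous mice, neither exposed to propylthiouracil (PTU), at postnatal day 15. Its members were taken from the genotype, treatment and age in the labels: 3 homozygous arrays and 3 heterozygous arrays, 6 of the 35 arrays of the series and 6 of the 18 of day 15. RNA of testes from male C57BL6 mice was hybridised to an Affymetrix whole-transcript array, with a separate mouse for each array per the design text. Beside these groups stand 3 arrays of Akt1 wildtype, unexposed, day 15 testis. Further arrays of day 15 were 3 each of homozygous, heterozygous and wild type PTU-exposed mice. At day 25, on arrays of another type, 3 each of homozygous and heterozygous unexposed mice were compared. The other day 25 arrays, of wild type unexposed mice and of PTU-exposed mice of all 3 genotypes, entered only the day 25 fit. PTU blocks the synthesis of thyroid hormone. The homozygous animals carry both mutant Akt1 alleles and the heterozygous animals carry 1; the construct of the allele, litters and the way PTU was given are not given in the sources used here.

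Akt1 is a serine/threonine kinase that is activated by phosphoinositide 3-kinase and acts on cell survival, growth and metabolism. In the first wave of spermatogenesis the germ cells of a young mouse advance nearly in step, from spermatogonia through meiotic entry to pachytene, the long stage of meiotic prophase in which homologous chromosomes are paired. Pachytene spermatocytes switch on a large set of testis-specific genes, many of them for proteins of the later sperm, while the Sertoli cells that nurse them stop dividing and close the blood-testis barrier.

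Values are log2 intensities, in which 1 unit is a factor of 2, and differences are homozygous minus heterozygous ± limma's standard error. A gene is said to be higher, lower, to rise or to fall where its Benjamini-Hochberg adjusted p, taken over all 16710 genes tested, was under 0.05. The tissue had the markers of immature testis in both groups. Sox9, the transcription factor of Sertoli cells, lay at 10.15 to 10.45 in homozygous and 9.98 to 10.05 in heterozygous arrays. Ddx4, an RNA helicase found in germ cells, lay at 11.54 to 11.75 in homozygous and 12.09 to 12.37 in heterozygous arrays. Prm1, a protamine of late spermatids, lay at 5.28 to 5.49 in homozygous and 5.59 to 5.80 in heterozygous arrays, close to the lower limit of 5.56 used for testing.

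Some arrays stood apart. By the pattern of 1685 bright probe sets without a gene name, the day 15 arrays fall into 2 sets: homozygous array 3 and heterozygous arrays 2 and 3 belong to the second, and homozygous arrays 1 and 2 and heterozygous array 1 to the first. Each set therefore holds both genotypes, in unequal numbers. The unexposed wild type arrays are all of the first set, so differences from wild type cannot be fully told apart from array set. Among exposed arrays, homozygous array 1, heterozygous arrays 1 and 2 and all wild type ones are of the first set. Exposed homozygous arrays 2 and 3 and heterozygous array 3 are of the second. The imbalance between genotypes is thus the reverse of the unexposed one. Car3, a carbonic anhydrase abundant in fat and muscle, read 5.55, 8.57 and 6.87 in homozygous arrays 1, 2 and 3, against 5.71, 5.68 and 5.63 in the heterozygous arrays (1.32 ± 0.47, adjusted p = 0.101). None of the 5 fat genes tested passed, Adipoq, Lep, Fabp4 and Ucp1 were under the lower limit of testing, and the mean of the 5 ran from 6.24 to 7.13 in homozygous and from 6.30 to 6.39 in heterozygous arrays. Spink8, which is abundant in the epididymis, read 5.09, 4.91 and 6.73 in the homozygous arrays, against 5.02, 5.43 and 5.06 in the heterozygous ones (0.41 ± 0.95, adjusted p = 0.855). None of the 6 epididymis genes tested passed, and their mean ran from 5.92 to 6.17 in homozygous and from 5.87 to 5.89 in heterozygous arrays. The part of these transcripts in the other results was not tested.

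The Akt1 transcript read 9.40, 9.23 and 9.04 in homozygous arrays, against 9.52, 9.96 and 9.70 in heterozygous and 9.34, 9.48 and 9.71 in wild type arrays. All 3 homozygous arrays lay under all 3 heterozygous ones and overlapped the wild type range. The difference was -0.50 ± 0.22 and did not pass (adjusted p = 0.176). Where the probes lie relative to the mutated part of the gene is unknown here, so this level does not test the genotype labels. Akt2, a close relative of the same kinase family, read 11.31, 11.34 and 11.12 in homozygous and 11.24, 11.23 and 11.17 in heterozygous arrays (0.04 ± 0.08, adjusted p = 0.818). Of the 38 genes tested from the PI3K and Akt pathway, 0 passed (10 were higher and 3 lower in every homozygous array than in any heterozygous one, beside 12.2% and 13.0% of all genes), and of 21 neighbours of Akt1 on its chromosome 0 passed, with a median difference of 0.03. These zeros are limma's, with all day 15 arrays in the fit.

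Across the array, 1045 of 16710 genes passed (6.25%): 292 were higher in homozygous testis (1.75%) and 753 were lower (4.51%). Without adjustment 3733 genes had a p under 0.05 (22.3%). The falls were the larger changes. The 753 lower genes had a median difference of -0.85 and the 292 higher genes one of 0.48, beside 0.02 over all genes tested. A fall of more than 1 log2 was seen for 297 genes and one of more than 2 log2 for 67, whereas 4 genes rose by more than 1 log2. The 3 homozygous arrays did not overlap the 3 heterozygous ones in 1039 of the 1045 genes; over all genes tested, 12.2% had every homozygous array higher and 13.0% every homozygous array lower. In bulk tissue, fewer cells of a type and less RNA per cell cannot be told apart, and this holds for every gene below.

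The number of genes called rests on few arrays. Without homozygous array 1 the count was 0, without homozygous array 2 it was 1, without heterozygous array 1 it was 2 and without heterozygous array 3 it was 0, while it was 1535 without homozygous array 3 and 1027 without heterozygous array 2. All 1045 genes kept their direction and an unadjusted p under 0.05 in each of these 6 fits. They were chosen on these same arrays, so their direction and p here and within the array sets below are no separate support. With array set as a block 1071 genes passed. Within the first array set (2 homozygous arrays against 1 heterozygous) 594 passed, and within the second (1 against 2) 0 passed at a smallest adjusted p of 0.478; 568 of the 1045 genes had an unadjusted p under 0.05 there, and all 1045 had the same direction. In both of these fits 1 genotype has a single array, which is assumed to vary like the groups with more than 1 array in the set, and the sets were found in the values and are in no label, so these counts are a description.

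**Figure D1:**
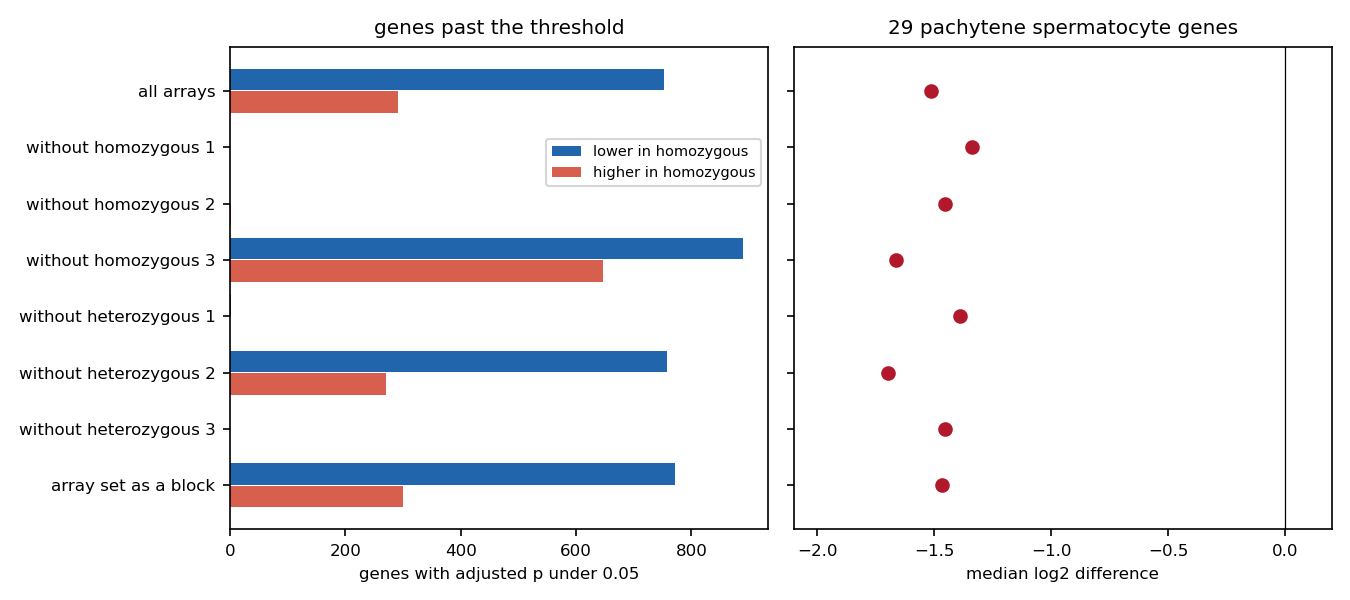
Genes past the threshold (left, number of genes lower and higher in homozygous testis) and the median log2 difference of 29 pachytene spermatocyte genes (right), with all arrays, without each array in turn and with array set as a block. The gene count falls to between 0 and 2 when homozygous array 1 or 2 or heterozygous array 1 or 3 is left out, while the median of the pachytene genes lies between -1.70 and -1.34 in all 6 leave-one-out fits.

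The 14 largest falls, by a fixed rule of size and non-overlap, ran from -3.35 to -2.72. For several of them a homozygous array read under 5.56, the lower limit of testing, and such a reading has no exact level. Crisp2, a cysteine-rich protein of the sperm acrosome and tail, read 5.36, 5.76 and 6.87 in homozygous arrays, against 9.78, 8.69 and 9.55 in heterozygous and 11.62, 11.07 and 11.17 in wild type arrays (-3.35 ± 0.70, adjusted p = 0.017). Ptchd3, a patched-domain protein of sperm, read 5.37, 6.80 and 8.40 in homozygous and 10.48, 9.64 and 10.40 in heterozygous arrays (-3.31 ± 0.68, adjusted p = 0.0162). Fabp9, a lipid-binding protein of the testis, read 7.21, 9.05 and 10.60 in homozygous and 12.42, 11.82 and 12.24 in heterozygous arrays (-3.21 ± 0.70, adjusted p = 0.0172). In all 3 genes homozygous array 3 was the nearest to the heterozygous arrays, and heterozygous array 2 was the lowest of its group.

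Gk2, a glycerol kinase of the testis, read 5.21, 5.86 and 7.34 in homozygous and 9.44, 8.51 and 9.54 in heterozygous arrays (-3.02 ± 0.68). Clec2m, of the C-type lectin family, read 5.69, 6.57 and 7.47 in homozygous and 10.00, 8.98 and 10.01 in heterozygous arrays (-3.09 ± 0.61). Dkkl1, a dickkopf-like protein of the acrosome, read 6.43, 6.94 and 7.87 in homozygous and 10.44, 9.26 and 10.34 in heterozygous arrays (-2.93 ± 0.56). The order of the arrays within each group was the same for Gk2 as for Crisp2 among the homozygous animals, with array 3 the highest and array 1 the lowest. The other members of the 14 are Ldhc, Adam5 and Adam2, described below, and Mroh4 (-2.94), Spata4 (-2.94), Ccdc192 (-2.83), Poteg (-2.73) and A26c3 (-2.72). Poteg and A26c3 belong to a family of similar ankyrin-repeat genes, so their probe sets may share signal.

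**Figure D2:**
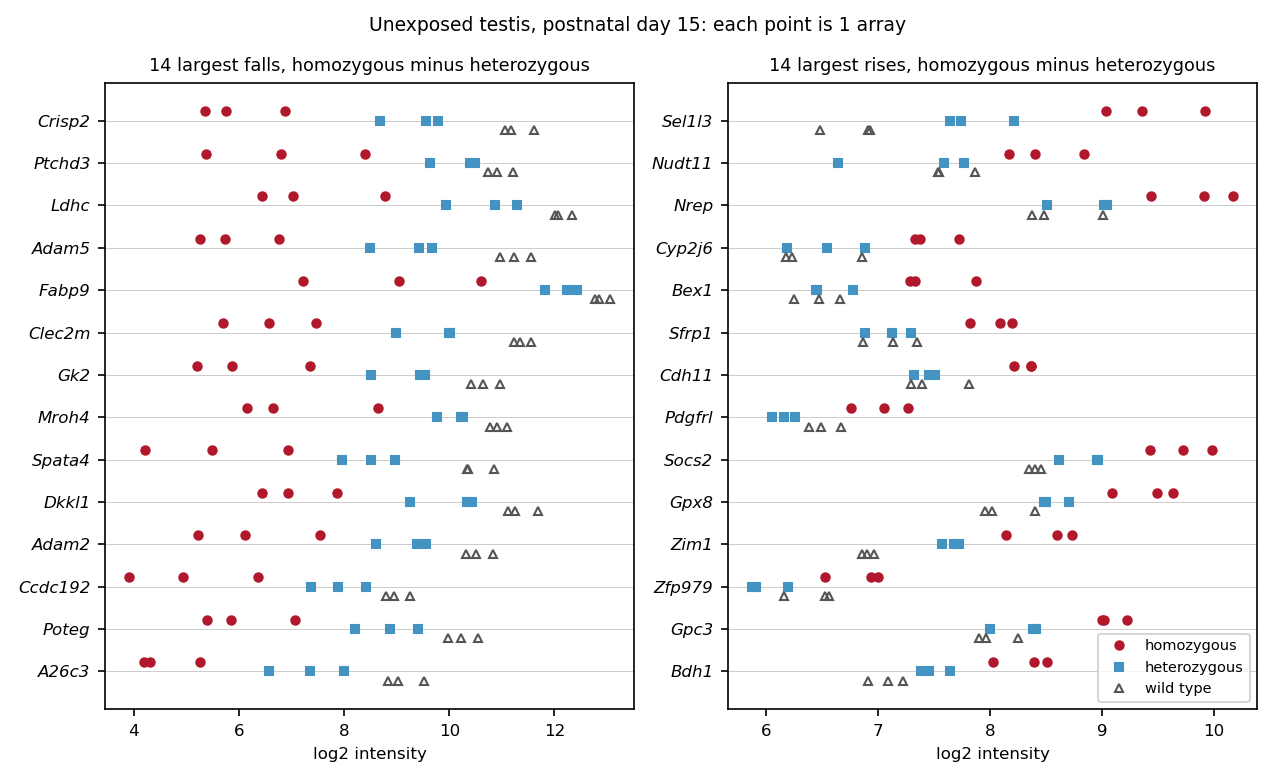
Log2 intensity (x axis) of the 14 largest falls (left) and the 14 largest rises (right) in homozygous relative to heterozygous testis, with 1 point for each of the 3 unexposed arrays per genotype at day 15. Homozygous and heterozygous points do not overlap for any gene shown, since non-overlap was part of the choice; for Crisp2 they lie at 5.36 to 6.87 and 8.69 to 9.78, with wild type at 11.07 to 11.62.

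The stretches of genome before these genes are shown because 753 genes fell in the same arrays. Each is a RefSeq promoter window on GRCm38.p6, from 250 bases before to 50 after the gene's start, 5′ to 3′ on the gene's strand. Capitals mark the core motif bound by MYB family factors, TAACNG or CAACNG on either strand, where N is any base; the 2 forms differ in their first letter only, so no run of letters matches both. Mybl1, a member of that family, is a known regulator of pachytene genes. The first 4 are the largest falls with a single promoter entry in the table and the last is the largest such rise.
Crisp2, chr17:40794097-40794396, minus strand: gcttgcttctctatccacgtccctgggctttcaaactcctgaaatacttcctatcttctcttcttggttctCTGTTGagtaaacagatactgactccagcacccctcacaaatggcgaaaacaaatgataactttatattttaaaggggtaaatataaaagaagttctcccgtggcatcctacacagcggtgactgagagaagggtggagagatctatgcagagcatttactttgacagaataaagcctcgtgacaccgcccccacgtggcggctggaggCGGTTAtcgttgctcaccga
Ptchd3, chr11:121829968-121830267, plus strand: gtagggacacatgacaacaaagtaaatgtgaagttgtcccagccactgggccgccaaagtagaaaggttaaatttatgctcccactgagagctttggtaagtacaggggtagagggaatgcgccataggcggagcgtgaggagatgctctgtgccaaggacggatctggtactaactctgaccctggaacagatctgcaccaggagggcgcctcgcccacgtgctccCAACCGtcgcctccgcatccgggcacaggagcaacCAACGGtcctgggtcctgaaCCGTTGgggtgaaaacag
Clec2m, chr6:129331732-129332031, minus strand: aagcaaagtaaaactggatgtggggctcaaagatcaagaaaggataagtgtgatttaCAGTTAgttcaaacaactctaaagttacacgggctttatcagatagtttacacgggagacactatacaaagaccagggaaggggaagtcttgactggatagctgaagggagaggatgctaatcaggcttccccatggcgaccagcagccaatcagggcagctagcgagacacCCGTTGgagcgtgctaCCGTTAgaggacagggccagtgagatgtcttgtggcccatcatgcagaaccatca
Gk2, chr5:97456974-97457273, minus strand: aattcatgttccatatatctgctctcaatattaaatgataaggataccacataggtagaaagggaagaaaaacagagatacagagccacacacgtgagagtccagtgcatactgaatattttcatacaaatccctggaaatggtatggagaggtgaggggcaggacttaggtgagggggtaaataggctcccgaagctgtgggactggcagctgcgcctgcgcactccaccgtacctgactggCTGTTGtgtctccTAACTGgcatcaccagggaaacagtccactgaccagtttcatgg
Nudt11, chrX:6047257-6047556, plus strand: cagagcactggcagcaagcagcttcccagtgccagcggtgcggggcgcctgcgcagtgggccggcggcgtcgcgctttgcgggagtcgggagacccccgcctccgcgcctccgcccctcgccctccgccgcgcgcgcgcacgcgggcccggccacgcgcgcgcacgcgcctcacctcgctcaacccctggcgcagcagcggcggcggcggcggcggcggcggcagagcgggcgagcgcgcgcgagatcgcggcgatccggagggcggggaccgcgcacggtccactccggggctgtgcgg

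Crisp2 and Gk2 hold 2 such matches each, Ptchd3 and Clec2m 3 each, and Nudt11 holds 0. Among genes tested with a single promoter entry, the motif was present in 333 of 487 genes lower in homozygous testis (68.4%), in 55 of 151 genes higher (36.4%) and in 4926 of all 10692 (46.1%). GTTGCCA, an arm of the X-box read by RFX factors, searched on both strands, was present in 57 of the lower genes (11.7%), 3 of the higher genes (1.99%) and 440 of all (4.12%). TGACGTCA, the full cyclic AMP response element, was present in 11 of the lower genes (2.26%), 5 of the higher genes (3.31%) and 305 of all (2.85%). Of the lower genes on the pachytene list described below, 7 of 11 with a single promoter entry held the MYB motif (63.6%). For the lower genes of the piRNA list it was 5 of 11 (45.5%), near the share of all genes. GTTGCCA was present in 0 of 11 in both of these sets. A match is a run of letters and not a measured binding site, base composition was not matched between the sets, and no test was made of these shares. The Mybl1 transcript itself read 9.02, 9.40 and 9.32 in homozygous and 10.17, 9.59 and 9.67 in heterozygous arrays, with no overlap (-0.56 ± 0.25, adjusted p = 0.192).

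Genes of pachytene spermatocytes fell as a group. Of the 29 tested, 22 were lower in homozygous testis (75.9%, beside 4.51% of all genes) and 0 were higher, with a median difference of -1.51 beside 0.02 over all genes. All 29 differences were negative, and 26 genes were lower in every homozygous array than in any heterozygous one (beside 13.0% of all genes). The mean over the 29 genes was 6.89, 7.18 and 7.78 in homozygous arrays, against 9.01, 8.49 and 8.94 in heterozygous and 10.02, 9.63 and 9.76 in wild type arrays. The lowest heterozygous array thus lay above the highest homozygous one, and the lowest wild type array above the highest heterozygous one. The wild type arrays are all of the first array set, as is heterozygous array 1, at 9.01. The part of array set in the difference from wild type was not tested. Within the first array set the median difference of the list was -1.87, and within the second it was -0.91. In the fits without 1 array the median lay between -1.70 and -1.34, and between 0 and 23 of the genes passed.

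Ldhc, the lactate dehydrogenase of spermatocytes and sperm, read 6.44, 7.03 and 8.78 in homozygous and 11.28, 9.95 and 10.86 in heterozygous arrays (-3.28 ± 0.70, adjusted p = 0.017). Adam2 and Adam5 belong to the ADAM proteins of the sperm surface. Adam5 read 5.26, 5.73 and 6.76 in homozygous and 9.67, 8.48 and 9.42 in heterozygous arrays (-3.27 ± 0.74). For Adam2 the values were 5.23, 6.12 and 7.55 in homozygous and 9.56, 8.61 and 9.39 in heterozygous arrays (-2.89 ± 0.61). In each of the 3 genes homozygous array 1 was the lowest and array 3 the highest of its group, and the homozygous arrays spread over a wider range than the heterozygous ones.

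Crisp2, described above, and Piwil1, described with the piRNA pathway, are also on the list and passed. The remaining pachytene genes that passed had smaller differences. Spink2, an inhibitor of acrosomal proteases, differed by -2.16 ± 0.47 and Clgn, a chaperone of the endoplasmic reticulum needed for sperm surface proteins, by -1.98 ± 0.44. Ybx2, a protein that stores messenger RNA in germ cells, read 7.66, 8.18 and 9.51 in homozygous arrays, against 10.48, 10.18 and 10.70 in heterozygous arrays. H1f6, the testis linker histone, differed by -1.76 ± 0.40 and Hspa2, a testis heat shock protein, by -1.54 ± 0.34. Sox30 (-1.10 ± 0.25), Brdt (-1.10 ± 0.28) and Tcfl5 (-0.73 ± 0.14), which act on transcription or chromatin in spermatocytes, also fell. Tcfl5 read 9.58, 9.57 and 9.48 in homozygous arrays, against 10.44, 10.04 and 10.33 in heterozygous arrays, so homozygous array 3 was here the lowest of its group. The further genes that passed were Nme5, Spata16, Meig1, Cox6b2, Adam3, Dmrtc2, Tcp11, Insl6 and Zpbp, with differences between -1.87 and -0.78.

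The 7 pachytene genes that did not pass were Pdha2, Pgk2, Slc26a8, Mybl1, Spag6, Calr3 and Ccna1. Pgk2, the glycolytic kinase of later germ cells, read 4.93, 5.37 and 5.09 in homozygous arrays, against 6.14, 5.52 and 5.99 in heterozygous and 7.90, 7.32 and 7.68 in wild type arrays (-0.76 ± 0.25, adjusted p = 0.0825). Ccna1, the cyclin required at the end of meiotic prophase, read 6.03, 5.92 and 6.05 in homozygous arrays, against 6.00, 6.13 and 6.05 in heterozygous and 7.18, 6.64 and 7.16 in wild type arrays (-0.06 ± 0.12, adjusted p = 0.828). Adam3, by contrast, read 5.53, 5.85 and 6.02 in homozygous arrays, 7.76, 6.79 and 7.40 in heterozygous and 10.68, 9.91 and 9.95 in wild type arrays (-1.51 ± 0.41, adjusted p = 0.0359). Both mutant groups thus lay near the lower limit for Ccna1, while for Adam3 the 3 genotypes were apart.

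**Figure D3:**
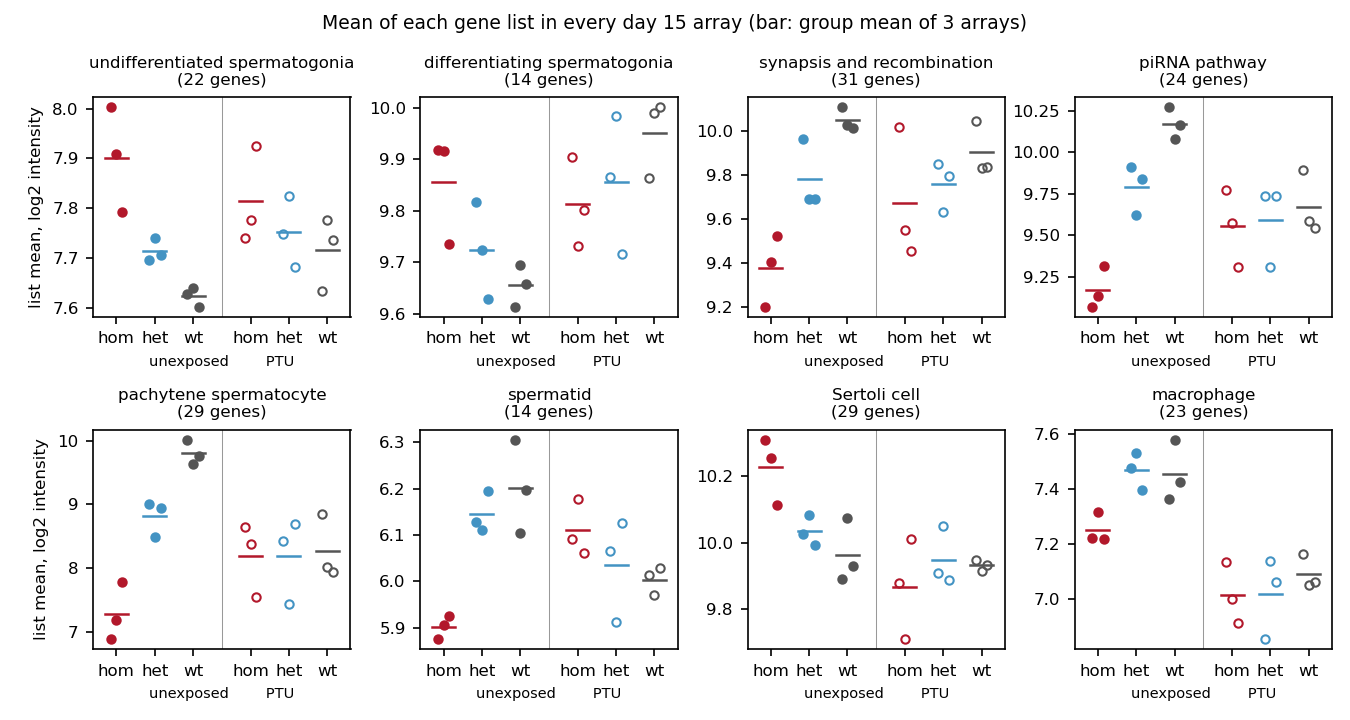
Mean log2 intensity (y axis) of 8 gene lists in every day 15 array, by genotype and exposure, with a bar at the mean of the 3 arrays of a group. The pachytene list lies at 6.89 to 7.78 in unexposed homozygous arrays and 8.49 to 9.01 in unexposed heterozygous arrays, while the PTU-exposed homozygous and heterozygous arrays overlap.

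Genes of synapsis and recombination, which act from earlier in meiotic prophase, fell in part. Of 31 tested, 8 were lower (25.8%, beside 4.51%), 0 were higher and the median difference was -0.49. Psmc3ip, which helps the recombinases exchange strands, read 7.83, 7.87 and 8.88 in homozygous and 9.25, 9.19 and 9.42 in heterozygous arrays (-1.10 ± 0.26, adjusted p = 0.0206). Spo11, the enzyme that makes the meiotic DNA breaks, read 7.51, 8.15 and 8.55 in homozygous and 9.31, 8.87 and 9.25 in heterozygous arrays (-1.08 ± 0.25, adjusted p = 0.0184). Meiob and its partner Spata22, which bind single-stranded DNA, fell by 0.97 and 0.90, and the crossover proteins Msh4 and Msh5 fell by 0.90 and 0.51. Hormad1, of the chromosome axis (-0.85 ± 0.25), and Syce1, of the central element (-0.59 ± 0.15), complete the 8.

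Other genes of the list did not pass. The synaptonemal complex genes Sycp1 (-0.52 ± 0.20, adjusted p = 0.122), Sycp2 (-0.72 ± 0.22, adjusted p = 0.0586) and Sycp3 (-0.52 ± 0.19, adjusted p = 0.104) had negative differences. Sycp3 read 10.74, 10.63 and 11.43 in homozygous and 11.42, 11.45 and 11.50 in heterozygous arrays, homozygous array 3 lying within the heterozygous range. The recombinase Dmc1 differed by -0.20 ± 0.10 (adjusted p = 0.263), the hotspot factor Prdm9 by -0.06 ± 0.12 (adjusted p = 0.813), the meiotic cohesin Rec8 by -0.05 ± 0.14 (adjusted p = 0.886) and Mei1, needed for break formation, by 0.02 ± 0.11 (adjusted p = 0.942).

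In the piRNA pathway, whose small RNAs silence transposons in germ cells, 16 of 24 genes were lower (66.7%, beside 4.51%) and 0 were higher, with a median of -0.57. Piwil1, the PIWI protein of pachytene cells and spermatids, read 7.02, 7.59 and 8.84 in homozygous and 10.78, 10.04 and 10.77 in heterozygous arrays (-2.71 ± 0.57, adjusted p = 0.017). It is also 1 of the 29 pachytene genes. Tdrd6, a tudor-domain protein of the chromatoid body, differed by -1.66 ± 0.46, Tdrd5 by -1.21 ± 0.29, Tdrd9 by -0.84 ± 0.19 and Tdrd12 by -0.82 ± 0.22. Piwil2, which is also active in spermatogonia, read 10.63, 10.83 and 10.98 in homozygous and 11.59, 11.33 and 11.47 in heterozygous arrays (-0.65 ± 0.15, adjusted p = 0.0194). Ddx4 (-0.58 ± 0.14), Mov10l1 (-0.57 ± 0.13) and Mael (-0.55 ± 0.12) fell by similar amounts. Piwil4, the PIWI protein of fetal germ cells and spermatogonia, read 7.48, 7.47 and 7.30 in homozygous and 7.18, 6.97 and 7.28 in heterozygous arrays (0.27 ± 0.15, adjusted p = 0.285).

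The Cfap and Dnah families of the sperm tail and the Adam family were counted after their values had been seen. Of 29 Cfap genes tested, which encode cilia and flagella proteins, 14 were lower (48.3%, beside 4.51% of all genes) and 0 higher, with a median of -0.70. Cfap206 read 5.41, 5.94 and 6.99 in homozygous and 9.19, 8.20 and 9.05 in heterozygous arrays (-2.70 ± 0.59, adjusted p = 0.0172). Of 15 Dnah genes, the heavy chains of axonemal dynein, 9 were lower (60.0%, beside 4.51%) and 0 higher, with a median of -0.90; Dnah8, of the sperm outer dynein arm, differed by -2.43 ± 0.52 and Dnah1 by -1.11 ± 0.23. Dnah7a, Dnah7b and Dnah7c are near-identical copies, all lower, and may share signal. Of 22 Adam genes 5 were lower (22.7%, beside 4.51%) and 0 higher: Adam5, Adam2, Adam32 (-2.28 ± 0.50), Adam3 and Adam30 (-0.98 ± 0.23). The median of the 22 was -0.09, with 13 negative and 9 positive differences, so the Adam family did not fall as a whole.

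Most spermatid genes were near the lower limit of testing in both groups. Of the 18 on the list 4 were under it, and 2 of the 14 tested were lower (14.3%, beside 4.51% of all genes), with a median of -0.09. Acr, the acrosomal protease acrosin, whose transcript begins in spermatocytes, read 6.13, 6.27 and 6.68 in homozygous and 8.30, 7.70 and 8.03 in heterozygous arrays (-1.65 ± 0.35, adjusted p = 0.017). Spata18 differed by -0.70 ± 0.15. The protamine Prm1 differed by -0.30 ± 0.10 (adjusted p = 0.0927), and the transition protein Tnp1 by 0.10 ± 0.13 (adjusted p = 0.728).

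In spermatogonia no gene of either list passed. Among 22 genes of undifferentiated spermatogonia, 18 differences were positive with a median of 0.19, and 10 genes were higher in every homozygous array than in any heterozygous one (beside 12.2% of all genes). By limma's fit on all day 15 arrays 0 passed after adjustment. The counts depend on the arrays, with up to 7 higher in the fits without 1 array. Zbtb16, a factor that keeps these cells undifferentiated, read 10.04, 10.07 and 10.09 in homozygous and 9.43, 9.89 and 9.69 in heterozygous arrays (0.40 ± 0.15, adjusted p = 0.124). Ret, a receptor for the niche factor GDNF, read 8.54, 8.43 and 8.15 in homozygous and 7.87, 7.91 and 7.91 in heterozygous arrays (0.48 ± 0.15, adjusted p = 0.0657). Bcl6b (0.43 ± 0.13, adjusted p = 0.0608), Lin28a (0.43 ± 0.13, adjusted p = 0.0639) and Sall4 (0.41 ± 0.13, adjusted p = 0.0752) were likewise short of the threshold.

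Among 14 genes of differentiating spermatogonia 12 differences were positive, with a median of 0.16. Kit, the receptor of these cells, read 10.59, 10.75 and 10.40 in homozygous and 10.51, 10.41 and 10.25 in heterozygous arrays (0.19 ± 0.11, adjusted p = 0.335). Stra8, which retinoic acid induces at meiotic entry, read 9.55, 9.42 and 9.67 in homozygous and 9.40, 9.67 and 9.47 in heterozygous arrays (0.04 ± 0.11, adjusted p = 0.892). For both genes the groups overlapped. Without heterozygous array 3 the median of the differentiating list was 0.081, and without homozygous array 2 it was 0.10. Along the germ line the median differences were 0.19, 0.16, -0.49, -1.51 and -0.09 for undifferentiated spermatogonia, differentiating spermatogonia, synapsis and recombination, pachytene and spermatid, the last of these lists being mostly near the lower limit.

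**Figure D4:**
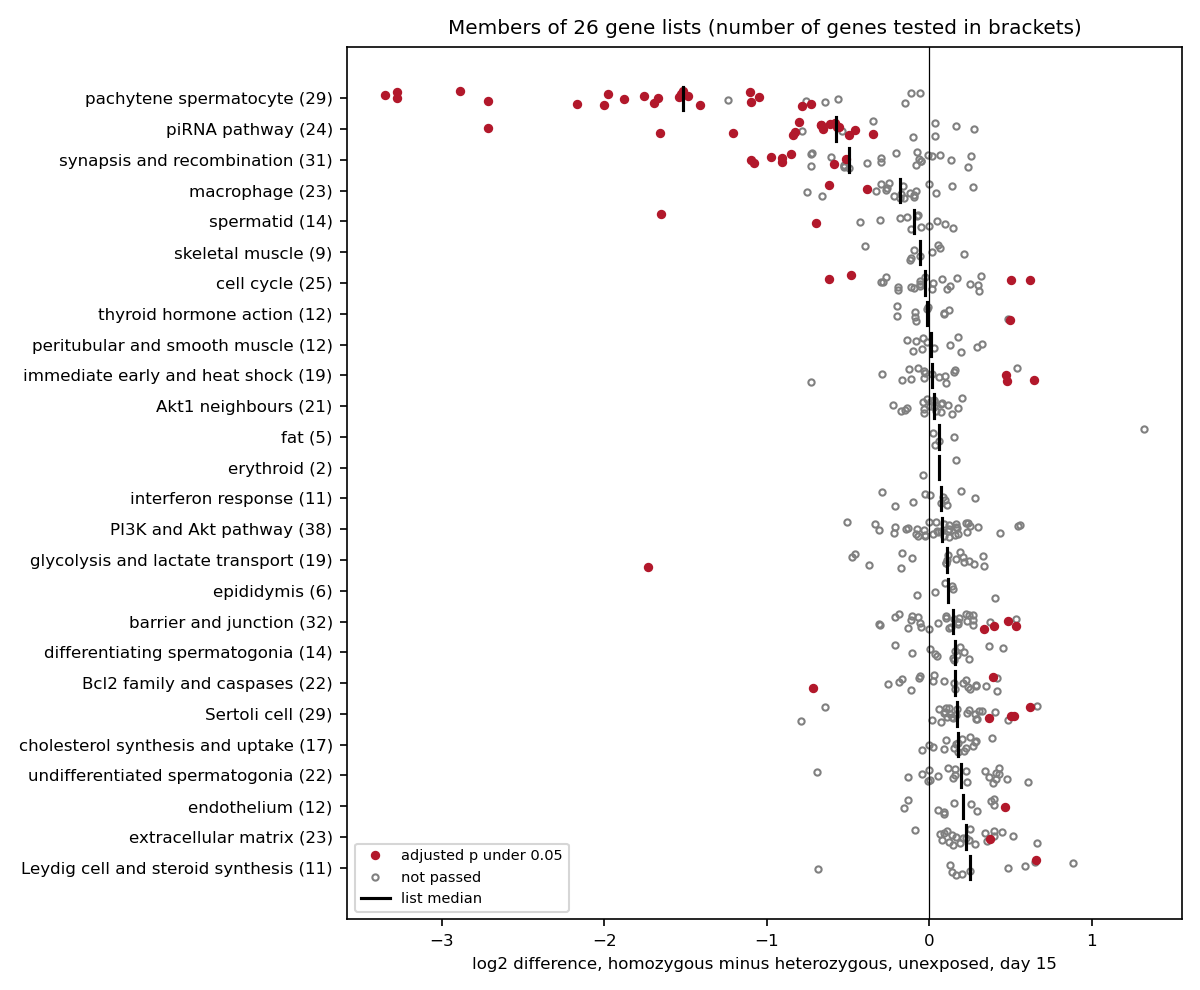
Log2 difference, homozygous minus heterozygous, of every tested member of 26 gene lists, with filled points for genes past the threshold and a bar at the list median. The pachytene list has 22 filled points of 29, all below 0, and a median of -1.51, and the Sertoli cell list has 4 of 29, all above 0, with a median of 0.17.

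Of 29 Sertoli cell genes tested, 4 rose (13.8%, beside 1.75% of all genes), 0 fell and 25 did not pass, with 27 positive differences and a median of 0.17. The other 2 were negative, down to -0.79, while the largest positive difference was 0.66. Both of these genes were lower in every homozygous array than in any heterozygous one, and 10 genes were higher in this way. Over all genes those shares were 13.0% and 12.2%. With only the groups compared in the fit 2 rose and 2 fell. Without homozygous array 3 the median was 0.30 and 7 rose, without heterozygous array 2 3 rose, and without any other of the 6 arrays 0 rose. Kitl, the ligand for Kit, read 10.52, 10.65 and 10.11 in homozygous and 9.99, 9.95 and 9.84 in heterozygous arrays (0.50 ± 0.13, adjusted p = 0.0314). Inhbb, the inhibin and activin beta B subunit, read 9.71, 9.41 and 9.38 in homozygous and 8.95, 9.10 and 8.89 in heterozygous arrays (0.52 ± 0.14, adjusted p = 0.0329). Ccnd2, a cyclin of dividing cells, differed by 0.62 ± 0.17 and Mro by 0.37 ± 0.09. Amh, the hormone of immature Sertoli cells, read 9.34, 8.88 and 9.12 in homozygous arrays, against 8.05, 8.75 and 8.55 in heterozygous and 7.63, 7.78 and 7.76 in wild type arrays (0.66 ± 0.23, adjusted p = 0.101). Sox9 differed by 0.29 ± 0.10 (adjusted p = 0.103).

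Of 32 barrier and junction genes 4 rose (12.5%, beside 1.75%) and 0 fell, with a median of 0.15. The differences were positive for 21 genes and negative for 11. Of the 32, 12 were higher and 5 lower in every homozygous array than in any heterozygous one. Over all genes those shares were 12.2% and 13.0%. The median was 0.074 without heterozygous array 1 and 0.22 without heterozygous array 2, and between 0 and 6 genes rose in the fits without 1 array. The 4 that rose with all arrays were Ocln, the tight junction protein occludin (0.53 ± 0.14, adjusted p = 0.0304), Gja1, the gap junction protein connexin 43 (0.49 ± 0.13, adjusted p = 0.0315), Pard3, a polarity scaffold (0.40 ± 0.09, adjusted p = 0.017), and Vcl, the actin linker vinculin (0.34 ± 0.09, adjusted p = 0.0278). Ocln read 9.73, 9.72 and 9.46 in homozygous and 9.29, 9.08 and 8.95 in heterozygous arrays, with no overlap. Array values are scaled to a common distribution by RMA, so a level here is relative to the other transcripts of the same array, and the pachytene list fell beside these rises in the same arrays; the part of that fall in these rises was not tested.

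Other cell types of the testis gave few calls. Of 11 Leydig cell and steroid genes 1 rose (9.09%, beside 1.75% of all genes), Akr1c14, a steroid-reducing enzyme (0.66 ± 0.18, adjusted p = 0.0401). Hsd17b3, which makes testosterone, differed by 0.59 ± 0.29 (adjusted p = 0.235). Of 12 endothelial genes 1 rose (8.33%, beside 1.75%), Pecam1 (0.47 ± 0.13, adjusted p = 0.045). Of 12 peritubular genes 0 passed, with Acta2, smooth muscle actin, at 0.18 ± 0.10 (adjusted p = 0.281). Of 23 extracellular matrix genes 1 rose (4.35%, beside 1.75% of all genes), the laminin Lama2 (0.37 ± 0.11, adjusted p = 0.0466), and 22 of the 23 differences were positive. Of 23 macrophage genes 2 fell (8.70%, beside 4.51%) and 0 rose, with 20 negative differences and a median of -0.18. Csf1r, the receptor that macrophages need for survival, read 7.70, 7.89 and 7.91 in homozygous and 8.19, 8.40 and 8.07 in heterozygous arrays (-0.38 ± 0.11, adjusted p = 0.04), and C1qb, a complement component, differed by -0.61 ± 0.18 (adjusted p = 0.0458). Cd68, a lysosomal protein of macrophages, differed by -0.26 ± 0.12 (adjusted p = 0.197). No macrophage gene fell when array set was added as a block, and 0 or 1 did in the fits without 1 array. With 0 to 2 genes called per list, these counts are too small to set against the shares of all genes and are no result about these lists.

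Single genes of other pathways passed. Slc2a3, the glucose transporter GLUT3, read 9.47, 9.58 and 9.77 in homozygous arrays, against 11.71, 10.80 and 11.52 in heterozygous and 12.89, 12.40 and 12.63 in wild type arrays (-1.73 ± 0.46, adjusted p = 0.034). It was the 1 gene to pass of 19 glycolysis and lactate transport genes (5.26% lower, beside 4.51% of all genes). Thrb, a thyroid hormone receptor, read 6.76, 6.98 and 6.59 in homozygous and 6.27, 6.30 and 6.27 in heterozygous arrays (0.50 ± 0.11, adjusted p = 0.0174). It was the 1 gene to pass of 12 thyroid hormone genes (8.33% higher, beside 1.75% of all genes). Among 22 Bcl2 family and caspase genes Diablo, a mitochondrial protein that frees caspases, fell (-0.71 ± 0.15, adjusted p = 0.0162) and Bak1, a pore-forming death protein, rose (0.39 ± 0.11, adjusted p = 0.0449). Each is 4.55% of that list, beside 4.51% of all genes lower and 1.75% higher. Among 25 cell cycle genes the cyclins Ccnd2 and Ccnd3 (0.50 ± 0.14) rose, and Ccnb2 (-0.61 ± 0.14) and the kinase Aurka (-0.48 ± 0.12) fell. That is 8.0% of the list in each direction, beside 1.75% of all genes higher and 4.51% lower. In the fits without 1 array 0 to 2 of the list rose and 0 to 3 fell. Jun (0.64 ± 0.16), Myc (0.48 ± 0.12) and Hspa1a (0.47 ± 0.12) rose among 19 immediate early and heat shock genes (15.8%, beside 1.75% of all genes). The median of that list was 0.02, and between 0 and 3 of its genes rose in the fits without 1 array. In the lists for cholesterol synthesis, interferon response, erythroid cells and skeletal muscle 0 of 17, 0 of 11, 0 of 2 and 0 of 9 passed, beside 6.25% of all genes. Lists of this size are too small for a 0 to set them apart from that share. In the cholesterol list 16 of the 17 differences were positive, with a median of 0.18. Of its genes 4 were higher and 0 lower in every homozygous array than in any heterozygous one (beside 12.2% and 13.0% of all genes).

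The 14 largest rises lay between 0.82 and 1.57. Sel1l3 had the largest and read 9.92, 9.36 and 9.03 in homozygous arrays, against 7.74, 8.21 and 7.64 in heterozygous and 6.48, 6.93 and 6.91 in wild type arrays (1.57 ± 0.25, adjusted p = 0.0114), a level 2.97-fold higher in homozygous than in heterozygous testis. Nudt11, an inositol pyrophosphate phosphohydrolase, read 8.84, 8.41 and 8.17 in homozygous and 7.77, 7.59 and 6.65 in heterozygous arrays (1.14 ± 0.30, adjusted p = 0.0318). Sfrp1, a secreted antagonist of Wnt signals, read 7.82, 8.09 and 8.20 in homozygous and 7.13, 7.30 and 6.89 in heterozygous arrays (0.93 ± 0.15, adjusted p = 0.0134). Cdh11, a cadherin of mesenchymal cells (0.89 ± 0.16), Socs2, a suppressor of cytokine signals (0.86 ± 0.22), and Gpc3, a cell-surface glypican (0.82 ± 0.18), were others. The remaining members are Nrep (0.98), Cyp2j6 (0.94), Bex1 (0.94), Pdgfrl (0.86), Gpx8 (0.85), Zim1 (0.83), Zfp979 (0.83) and Bdh1 (0.82).

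To see where heterozygous testis lay between the other genotypes, its mean was set against the midpoint of homozygous and wild type testis. Crisp2 averaged 6.00 ± 0.78 in homozygous, 9.34 ± 0.58 in heterozygous and 11.28 ± 0.29 in wild type arrays (SD, n = 3 each), the heterozygous mean lying between the others. Off the midpoint 1 of 16710 genes passed (0.00598%), and 1356 had an unadjusted p under 0.05 (8.11%). The gene was Tbxas1, thromboxane synthase, which read 5.37, 5.50 and 5.47 in homozygous, 6.14, 5.91 and 6.06 in heterozygous and 5.58, 5.55 and 5.41 in wild type arrays, 0.56 ± 0.08 above the midpoint (adjusted p = 0.0234). All 3 homozygous readings and all but 1 of the wild type ones lie under the lower limit of 5.56, so the size of this difference is not exact. The pachytene list had a median of 0.38 above the midpoint, with 0 of 29 genes passing. This contrast shares its homozygous and heterozygous arrays with the main one. Its wild type arrays are all of the first array set, so it cannot be fully told apart from array set.

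The same difference between genotypes was measured in PTU-exposed mice of day 15. There 0 genes passed (0.0%) by limma at a smallest adjusted p of 0.822, and 984 had an unadjusted p under 0.05 (5.89%). Genes lower in unexposed homozygous testis had a median difference of -0.02 in exposed mice, and the genes higher a median of -0.03. Crisp2 read 9.18, 8.73 and 6.61 in exposed homozygous and 8.74, 6.44 and 8.91 in exposed heterozygous arrays (0.14 ± 0.70, adjusted p = 0.978). Each exposed group held 1 array more than 2 units under the other 2, and the groups overlapped. The pachytene list mean was 8.65, 8.38 and 7.55 in exposed homozygous and 8.42, 7.43 and 8.70 in exposed heterozygous arrays.

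The difference between exposed and unexposed mice in the genotype effect was itself tested as an interaction. Exposed and unexposed mice differ in how the genotypes are split between the array sets. The interaction thus cannot be fully told apart from array set. By limma 0 genes passed (0.0%) at a smallest adjusted p of 0.109, and 2822 had an unadjusted p under 0.05 (16.9%). For Crisp2 the interaction was 3.49 ± 0.99 (adjusted p = 0.144), for Piwil1 2.84 ± 0.81 (adjusted p = 0.144) and for Sel1l3 -1.68 ± 0.36 (adjusted p = 0.109). These genes were named for their differences in the unexposed arrays. The interaction uses those arrays again, so its size and sign for them are no separate support. The median over the 29 pachytene genes was 1.45, with 23 of them under an unadjusted p of 0.05 and 0 past the threshold. Without exposed heterozygous array 3 the count was 201, and it was 0 without any other single array of the 4 groups. With array set as a block the count was 0. Within the first array set, which leaves out exposed and unexposed arrays alike and holds 1 exposed homozygous and 1 unexposed heterozygous array, it was 661. The 5 smallest p were those of Golim4 (-0.83 ± 0.13), Folr2 (0.66 ± 0.12), Cpn1 (1.39 ± 0.26), Crispld1 (-1.08 ± 0.20) and Sfrp2 (-0.89 ± 0.17), each with adjusted p = 0.109.

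At day 25, in other mice and on another array type, 0 of 16305 genes passed (0.0%) between unexposed homozygous and heterozygous testis by limma, and 1807 had an unadjusted p under 0.05 (11.1%). Of the 753 genes lower at day 15, 677 were tested at day 25 and had a median difference of -0.04; the 256 tested of the 292 higher genes had one of 0.07. Ldhc read 14.37, 14.69 and 14.69 in homozygous and 14.75, 14.71 and 14.69 in heterozygous arrays of day 25 (-0.13 ± 0.13, adjusted p = 0.768). The pachytene list had a median of -0.09 and 0 of its 29 genes passed. The smallest p were those of Ppp1r10 (-0.65 ± 0.09, adjusted p = 0.0768), Agpat1 (-0.63 ± 0.10, adjusted p = 0.0965), Mir124-2hg (0.54 ± 0.09, adjusted p = 0.0965), Swi5 (0.56 ± 0.09, adjusted p = 0.0965) and Bsg (-0.52 ± 0.09, adjusted p = 0.105). The 2 ages were fitted separately, and the difference between them was not tested.

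**Figure D5:**
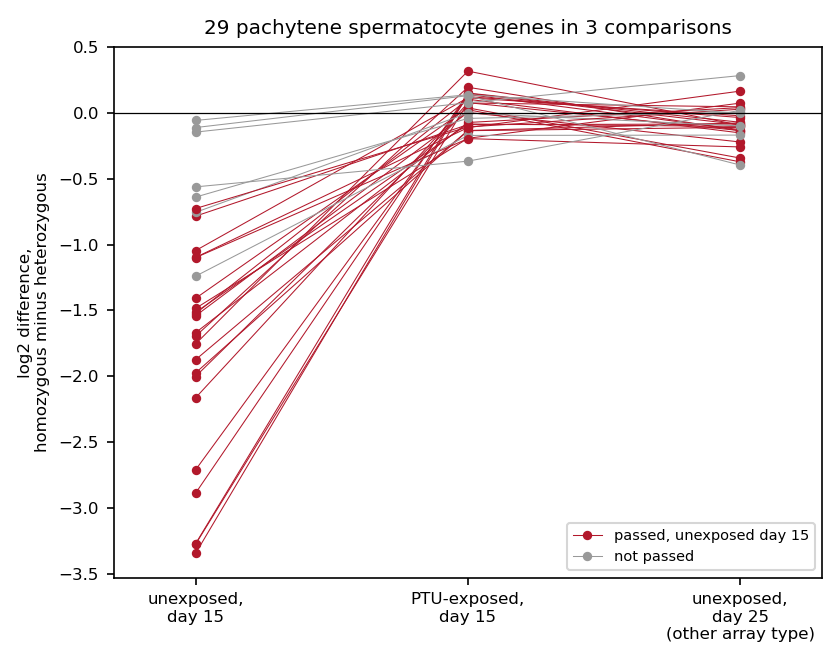
Log2 difference, homozygous minus heterozygous (y axis), of 29 pachytene spermatocyte genes in unexposed mice of day 15, PTU-exposed mice of day 15 and unexposed mice of day 25, with 1 line per gene. The medians are -1.51, 0.02 and -0.09, and only the first comparison has genes past the threshold among those shown.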

How the data were processed

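The authors deposited log2 intensities made with RMA, per the submitters' processing notes, which give no version; the values ran from 2.19 to 14.9 at day 15 and were used as deposited. Probe sets were named from the array annotation. Of 35556 probe sets 21789 had 1 symbol, 1621 several and 12146 none; the brightest probe set with 1 symbol stood for its gene (19938 genes), and the 16710 genes that exceeded 5.56, the 25th percentile over the whole table, in 2 or more arrays were tested. In R 4.3.3, limma 3.58.1 fitted 6 group means to the 18 day 15 arrays (12 residual degrees of freedom), so that the groups share 1 estimate of the spread, followed by contrasts, eBayes and Benjamini-Hochberg adjustment over all genes at 0.05. Day 25 (17 arrays) was fitted by itself. The number of arrays limits precision: the median standard error was 0.12 log2. The fit was run on simulated data with independent noise for each gene and array. Shifts shared by many genes of an array were not simulated, so that run does not show how the counts hold under them.

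Genes were named by rule: Akt relatives, the 14 largest rises and 14 largest falls among passing genes without overlap (unnamed gene models left out), up to 4 members with the smallest p of each list, the 5 smallest p where fewer than 5 passed, and a fixed set of testis markers; further members of the germ cell lists were chosen with their values seen. The members, lists and tests were chosen with earlier results of these data known. The sample numbers of the labels do not pair the arrays by their residuals (correlations of -0.054, -0.096 and 0.348 between homozygous and heterozygous arrays of the same number). Alternatives covered the filter, the choice of probe set, quantile normalization, the samples in the fit, array weights, a replicate block, the variance prior and each array left out; array set was added after the values were seen. Promoter sequences and chromosomes are RefSeq's, on GRCm38.p6.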

Additional observations from a re-analysis of the deposited data

How the results depend on the processing

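Settings other than leaving out arrays gave between 919 and 1172 genes past the threshold in the comparison of homozygous and heterozygous unexposed testis of day 15 (no filter, a 50th percentile filter, other probe set rules, quantile normalization, the compared groups alone, eBayes with trend and robust settings, array set as a block), except array weights with 2244, the replicate block built on the labels' numbers with 1564, and the first and second array sets alone with 594 and 0. Leaving out each array gave 0 to 1535. Under the replicate block 1043 of the 1045 genes still passed. Whether the numbers pair the arrays is not known, so this does not replace the reported count. The difference in Akt1 stayed short of the threshold throughout, at -0.79 to -0.21. Off the midpoint 0 genes passed at the 50th percentile, with quantile normalization, with the replicate block, with trend and robust settings and within the first array set, 3 with the compared groups alone and 7 with array weights, and 0 to 3 without 1 array. The interaction gave 661 genes within the first array set and 0 to 201 without 1 array. PTU-exposed mice gave 0 to 4 genes without 1 array. Day 25 gave 4 with every probe set, 2 with probe set means and 0 to 2 without 1 array. Causes were not tested. Among genes named, the sign changed for 9, of which none had passed. Within the second array set Akt2 was at -0.086, Prdm9 at 0.091, Rec8 at 0.0035, Spag6 at 0.080 and Tnp1 at -0.26. Within the first array set Calr3 was at 0.12, Mei1 at -0.040 and Spink8 at -0.016. Array weights gave -0.014 for Spink8 and -0.056 for Stra8, and array set as a block gave -0.030 for Mei1. Without 1 array, Akt2 ranged over -0.0010 to 0.11, Calr3 over -0.21 to 0.013, Mei1 over -0.041 to 0.065, Rec8 over -0.13 to 0.011, Spink8 over -0.17 to 0.74, Stra8 over -0.024 to 0.11 and Tnp1 over -0.065 to 0.20. Signal near the lower limit, as for spermatid genes, limits what can be measured.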

Other observations

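Genes of the X chromosome, which is silenced in pachytene spermatocytes, stood on the higher side in homozygous testis; the grouping by chromosome was made after values had been seen. Of 560 X-linked genes tested, 30 were higher (5.36%) and 0 were lower, and 477 (85.2%) had a positive difference, with a median of 0.19. Of 16127 autosomal genes, 261 were higher (1.62%) and 753 lower (4.67%), 54.4% had a positive difference and the median was 0.02. Nudt11, Bex1 and Gpc3 of the 14 largest rises are X-linked. Without homozygous array 1 or 2 or heterozygous array 1 or 3 the number of X-linked genes past the threshold was 0, while the share with a positive difference was 82.9% to 84.5% over the 6 fits without 1 array, 80.4% within the first array set and 79.6% within the second. In PTU-exposed mice the median of X-linked genes was -0.06 between the same genotypes, and at day 25 it was 0.06. No test was made of the chromosomes against each other.

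Other symbol families, also grouped after the values had been seen, are given by their counts. Of 124 Ccdc genes, which encode coiled-coil proteins, 21 were lower (16.9%, beside 4.51% of all genes) and 2 higher (1.61%, beside 1.75%), with Ccdc39, a ruler protein of motile cilia, at -1.72 ± 0.43 (adjusted p = 0.0254). Of 21 Spata genes 7 were lower (33.3%) and 0 higher, and of 7 Tdrd genes 5 were lower (71.4%) and 0 higher, beside 4.51% and 1.75% of all genes. Tdrd5, Tdrd6, Tdrd9 and Tdrd12 were already counted with the piRNA pathway, and Spata16, Spata18 and Spata22 with other lists above. These family counts are thus not separate from those lists. Of 24 Tex genes 2 were lower (8.33%, beside 4.51% of all genes), too few to be a result about the family. They were Tex101, a germ cell surface protein, at 9.53, 10.10 and 10.73 in homozygous and 11.23, 11.03 and 11.26 in heterozygous arrays (-1.05 ± 0.23, adjusted p = 0.0174), and Tex2 (-0.56 ± 0.14, adjusted p = 0.0282).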
